A study of Mus musculus with 14 samples.

Results

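Interferon response and signalling genes, 39 in number, were followed in cells of dispersed pancreatic islets that had been sorted by their acidic beta-galactosidase activity, an enzyme activity used to mark senescent cells. The members were found by gene symbol in a deposited table of 52459 genes, and all 39 were present. Of these, 37 had enough counts to be tested, and Oas3 and Ifi44 did not. There were 7 beta-galactosidase-negative and 7 beta-galactosidase-positive libraries (below, negative and positive), numbered 1 to 7 in each group. All came from C57BL/6J males aged 7 months, with no treatment or transgene named. The labels do not say whether a library held 1 animal or a pool, and the series title places the work in a study of beta cell aging. Total counts were 11060144 to 23045934 reads in the negative and 15585779 to 24577025 in the positive libraries.

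Interferons are secreted proteins, and cells make those of type I when they sense foreign or misplaced nucleic acid. Type I interferons (alpha and beta) bind a receptor of Ifnar1 and Ifnar2, and type II interferon (gamma) binds a receptor of Ifngr1 and Ifngr2. Janus kinases on the receptor tails then activate STAT proteins. After type I interferon, a complex that holds STAT2 and IRF9 binds the interferon-stimulated response element (ISRE) in promoters of antiviral genes, and interferon gamma acts through the gamma-activated site (GAS). In islets, interferon signalling is best known from the early phase of type 1 diabetes.

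Of the 37 members tested, 8 rose in positive libraries, 0 fell and 29 were not called. A gene is called where its p in the quasi-likelihood F-test of edgeR, adjusted by Benjamini and Hochberg over all 16350 genes tested, is below 0.05. The 8 are 21.6% of the members tested, and over all genes tested 6.4% were called higher and 1.63% lower. They were the IFIT genes Ifit2, Ifit3 and Ifit3b, the ubiquitin-like modifier Isg15, the membrane tether Bst2, the transcription factors Irf8 and Irf5, and the receptor chain Ifngr1. The median log2 fold change of the members tested was 0.28, against 0.00037 over all genes tested, and 30 of the 37 had a value above 0. With the replicate number as a block, which compares libraries of the same number, 9 rose and 0 fell (all genes: 11.8% higher and 7.77% lower), the added one being Ifnar2. Because the libraries hold mixed cells, a change in the number of cells of a type and a change in RNA per cell cannot be told apart.

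Libraries numbered 6 and 7 stood apart among the positives. In 26 of the 39 members, positive 6 and positive 7 were both above each of positive 1 to 5. Among the members tested this held for 64.9%, and over all genes tested for 11.9%. The same libraries carried the most RNA of macrophage marker genes. The summed level of 15 macrophage markers was 17.1 to 23.5 CPM (counts scaled to a common library size) in the negative libraries, 81.1 to 118 CPM in positive 1 to 5, 728 CPM in positive 6 and 520 CPM in positive 7. All 12 of the macrophage markers with enough counts to be tested rose (11 with the block). None of the 15 was at 0 in all libraries of a group, but 5 had under 10 counts over the negatives. C1qa alone gave 9.88 to 11.6 CPM of the sum in the negative libraries. The summed level of 15 endothelial markers was 8.23 to 77.0 CPM in negative and 415 to 1379 CPM in positive libraries, highest within each group in the libraries numbered 6 and 7. All 14 endothelial markers tested rose, and Cldn5 was at 0 in all negative libraries. Pericyte markers summed to 1.08 to 30.2 CPM in negative and 36.9 to 114 CPM in positive libraries (4 of 6 rose), and 2 of 3 delta cell markers rose. Of the 5 dendritic cell markers, which summed to 0.640 to 7.03 CPM in negative and 7.11 to 41.9 CPM in positive libraries, 2 were tested and Itgax rose (both with the block). Of the 7 acinar markers 3 fell, and 6 with the block. Of the 11 lymphocyte markers 2 were tested, of which Cd79b rose and Cd79a fell, and Cd3e, Nkg7 and Ncr1 were at 0 in every library. Of the 4 plasmacytoid dendritic cell markers, only Tcf4 was tested. It rose from 54.9 to 62.7 CPM in the negatives, a level far above that of the other markers of this list. Siglech had 1 count in negative and 4 in positive libraries. Ccr9 was at most 0.205 CPM, and Cd300c was read in positive 7 alone (0.0576 CPM). Beta cell markers dominated both groups, with 103104 to 154004 CPM in negative and 99219 to 129353 CPM in positive libraries summed over 9 genes. All 9 had a log2 fold change below 0, none was called, and 4 fell with the block. The 4 alpha cell markers summed to 9916 to 26988 CPM in negative and 3214 to 26255 CPM in positive libraries, and none was called. None of 4 neutrophil markers was tested (sums of at most 0.158 CPM in negative and 3.66 CPM in positive libraries). The part of RNA of these other cell types in the interferon gene values was not tested.

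**Figure D1:**
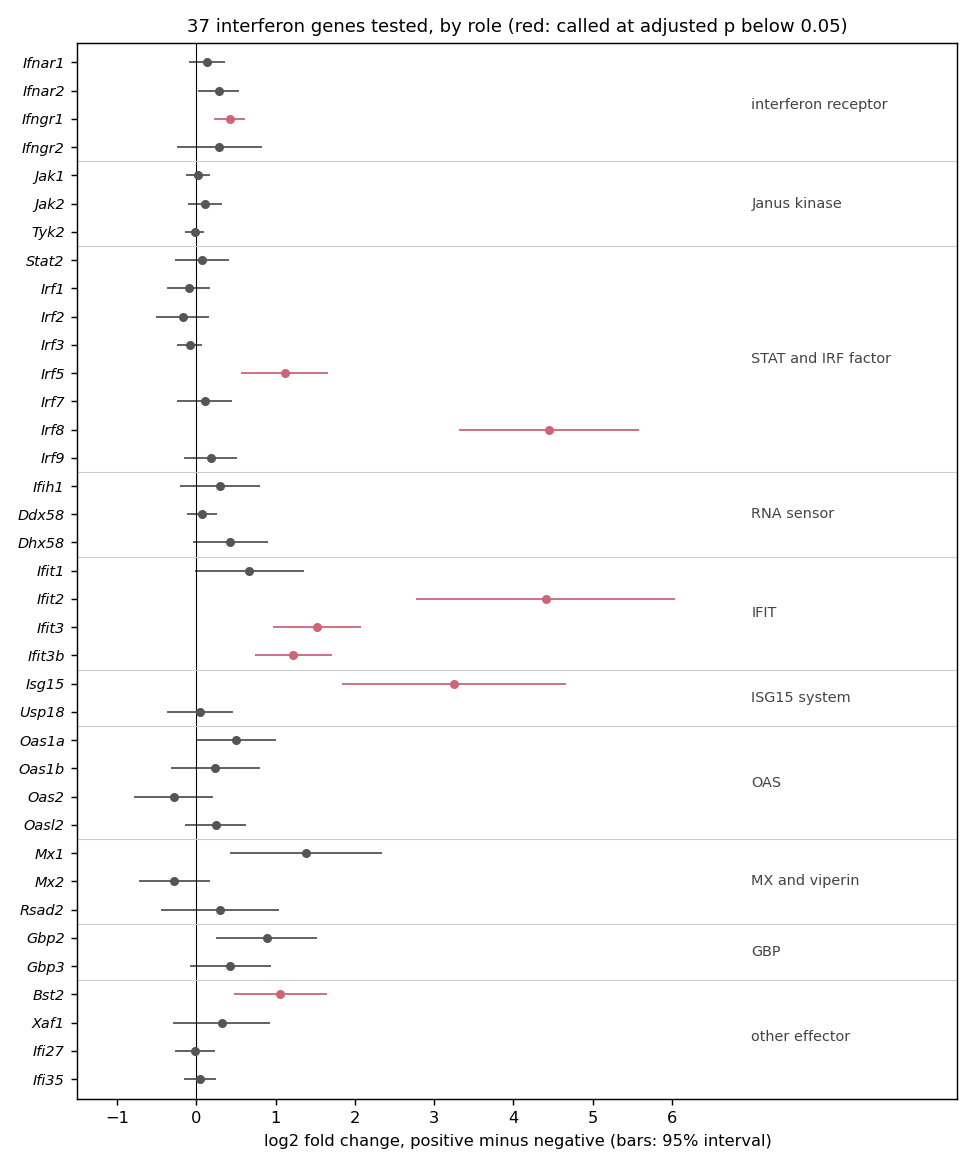
Log2 fold change (x axis, positive minus negative) of the 37 interferon genes tested, grouped by role, with 95% intervals; red points were called at an adjusted p below 0.05. The 8 called genes all lie to the right of 0, led by Irf8 at 4.45 and Ifit2 at 4.41, while the Janus kinases and most transcription factors lie close to 0.

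Promoter windows of the called genes are shown because the ISRE is the sequence through which IFIT genes, Isg15 and Bst2 are known to answer interferon. RefSeq windows on GRCm38.p6, from 250 bases before to 50 after the annotated start, were matched by symbol for 32 of the 39 members. The ISRE letters searched were GAAA, any 2 bases, then GAAA, on both strands (TTTC, any 2 bases, TTTC on the other), and overlapping matches count separately. They were found for 14 of the 32 members (43.75%), against 3.99% of all 27025 genes with a window. Of the 8 members that rose, 4 held them (Ifit3, Ifit3b, Isg15 and Bst2), as did 10 of the 24 others. Capitals mark the ISRE letters, and each window runs 5′ to 3′ along its gene's strand.
Isg15 (chr4:156200769-156201068, minus strand): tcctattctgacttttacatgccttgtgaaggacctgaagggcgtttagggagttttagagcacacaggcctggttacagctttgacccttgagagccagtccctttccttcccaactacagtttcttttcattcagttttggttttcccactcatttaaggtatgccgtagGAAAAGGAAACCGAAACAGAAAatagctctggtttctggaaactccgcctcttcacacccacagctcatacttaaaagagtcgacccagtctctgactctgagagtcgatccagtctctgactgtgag
Bst2 (chr8:71537423-71537722, minus strand): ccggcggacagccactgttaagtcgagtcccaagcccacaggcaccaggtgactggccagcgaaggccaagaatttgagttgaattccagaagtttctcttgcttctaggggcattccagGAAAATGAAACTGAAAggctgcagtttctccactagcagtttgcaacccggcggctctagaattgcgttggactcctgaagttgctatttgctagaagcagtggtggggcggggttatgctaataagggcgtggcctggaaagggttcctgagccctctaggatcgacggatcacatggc
Ifit3 (chr19:34583279-34583578, plus strand): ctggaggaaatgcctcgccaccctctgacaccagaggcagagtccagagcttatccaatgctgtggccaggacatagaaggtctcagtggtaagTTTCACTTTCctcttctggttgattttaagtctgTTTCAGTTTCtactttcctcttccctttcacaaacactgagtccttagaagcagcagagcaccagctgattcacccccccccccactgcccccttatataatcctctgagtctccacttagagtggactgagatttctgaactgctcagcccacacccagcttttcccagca
Ifit3b (chr19:34607707-34608006, plus strand): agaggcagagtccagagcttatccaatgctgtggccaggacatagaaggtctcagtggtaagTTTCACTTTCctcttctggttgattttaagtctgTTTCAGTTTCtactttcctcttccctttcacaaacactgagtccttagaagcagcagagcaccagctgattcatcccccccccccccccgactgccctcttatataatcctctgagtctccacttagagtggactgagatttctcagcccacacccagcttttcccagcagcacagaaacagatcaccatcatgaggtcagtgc
Isg15 held 3 overlapping matches, the first starting 78 bases before the annotated start. Bst2 held 2 overlapping matches, from 130 bases before it. Ifit3 and Ifit3b held the same pair, TTTCACTTTC and TTTCAGTTTC, at 156 and 122 bases before the start of Ifit3 and at 188 and 154 bases before that of Ifit3b. Ifit1, which was not called, held the same pair, at 104 and 85 bases before its start.

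Matches were not limited to genes that rose. Rsad2, Gbp2, Gbp3, Oas1a, Oas3, Ifih1, Ddx58, Stat2 and Irf2 also held the ISRE letters, and none of them was called, Oas3 being untested. Ifit2 rose and its windows held no ISRE letters, though a site outside the windows or with other letters would be missed. Ifngr1 rose and held neither motif, and its window is shown for comparison.
Ifngr1 (chr10:19591699-19591998, plus strand): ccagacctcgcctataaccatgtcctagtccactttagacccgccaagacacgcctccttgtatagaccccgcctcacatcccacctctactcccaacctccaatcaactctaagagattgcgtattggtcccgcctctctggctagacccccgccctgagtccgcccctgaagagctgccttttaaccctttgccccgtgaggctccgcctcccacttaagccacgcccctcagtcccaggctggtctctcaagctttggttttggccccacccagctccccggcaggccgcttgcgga
The GAS letters, TTC, any 3 bases, then GAA, which read the same on both strands, were found for 9 of the 32 members (28.12%) and for 9.55% of all genes with a window. Irf8, known as a target of interferon gamma, held 2 of them, TTCTCGGAA and TTCAGAGAA, in capitals here (this window was chosen after the values were seen).
Irf8 (chr8:120736108-120736407, plus strand): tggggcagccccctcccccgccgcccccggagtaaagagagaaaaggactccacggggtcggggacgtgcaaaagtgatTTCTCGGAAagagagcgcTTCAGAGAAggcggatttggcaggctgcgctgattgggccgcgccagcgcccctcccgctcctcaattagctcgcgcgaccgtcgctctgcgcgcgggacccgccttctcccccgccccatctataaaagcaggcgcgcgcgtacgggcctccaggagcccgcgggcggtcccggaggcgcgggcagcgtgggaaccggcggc
No ISRE letters were found in the Irf8 window.

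Interferons themselves were almost unread. Of 12 ligand genes looked up, Ifna1, Ifna4, Ifna5, Ifng, Ifnl2 and Ifnl3 had 0 counts in all 14 libraries. Ifnb1, which encodes interferon beta, had 0 counts in every negative library and 17 in the positive libraries, with 3, 0, 1, 2, 1, 6 and 4 in positive 1 to 7. With the negative level set at a floor of 3 counts over the group, the positive level was 5.05-fold higher. The 17 positive counts were taken as exact, so this fold is not a lower limit once their counting error is included. The other 5 ligand genes had at most 3 counts in either group, so differences in them were not detectable at this depth.

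Of the 4 receptor chains, Ifngr1 rose and the others were not called. Ifngr1, the ligand-binding chain of the interferon gamma receptor (chromosome 10, 19591949 to 19610229, GRCm38), was at 18.6, 26.3 and 29.2 CPM (lowest, median and highest) in negative and at 30.6, 33.7 and 36.9 CPM in positive libraries. Every positive library lay above every negative one, as in 6 of the 37 members tested (all genes: 3.5%). Its log2 fold change was 0.42 ± 0.09 (SE, adjusted p = 0.00789, higher in all 7 pairs of equal number). Positive 3 (36.3 CPM) was about as high as positive 6 (36.2 CPM) and 7 (36.9 CPM). Without libraries 6 and 7 the log2 fold change was 0.43, but the call was lost (adjusted p = 0.0781; 0.018 in the same libraries with the block). Its partner chain Ifngr2 was at 8.96, 26.8 and 29.5 CPM in negative and 20.9, 29.3 and 32.8 CPM in positive libraries, with negative 1 and 2 far below the rest (0.29 ± 0.25, adjusted p = 0.565). The type I receptor chains Ifnar1 (0.14 ± 0.11, adjusted p = 0.516) and Ifnar2 (0.28 ± 0.12, adjusted p = 0.201; 0.0476 with the block) were higher in 6 of 7 pairs each, and their groups overlapped.

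None of the 3 Janus kinases, which carry the signal of all interferon receptors, was called. Jak1 was among the most read members, at 190, 207 and 242 CPM in negative and 186, 220 and 250 CPM in positive libraries. Its log2 fold change was 0.02 ± 0.07, with a 95% interval of −0.13 to 0.18, and the groups overlapped. Tyk2 had −0.02 ± 0.06 (95% interval −0.14 to 0.10) and Jak2 0.11 ± 0.10 (−0.11 to 0.32). Jak2 was higher in all 7 pairs and yet not called with the block (adjusted p = 0.146). Negative 1 had the lowest level of Jak2, 76.6 CPM, and positive 1 the lowest of its group, 106 CPM.

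Among the transcription factors, Irf8 and Irf5 rose, and both are best known from myeloid and other immune cells. Irf8, needed for macrophage and dendritic cell development (chromosome 8, 120736358 to 120756694), was at 0.0601, 0.185 and 0.522 CPM in negative and 2.22, 5.13 and 11.8 CPM in positive libraries. The groups were far apart, and the negative level rested on 31 counts over 7 libraries. The log2 fold change was 4.45 ± 0.53 (adjusted p = 0.000115), and 4.44 without the 4 libraries numbered 6 and 7. Irf5, which acts downstream of Toll-like receptors, was at 1.92, 2.32 and 2.78 CPM in negative and 3.08, 3.27 and 9.08 CPM in positive libraries (1.11 ± 0.26, adjusted p = 0.0119). The values of positive 6 and 7 were 9.08 and 8.07 CPM, and the next positive was at 4.92 CPM. Without libraries 6 and 7 its log2 fold change was 0.64 and the call was lost (adjusted p = 0.0946; 0.0265 in the same libraries with the block).

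The factors that carry type I interferon signals in most cells were not called. Stat2 was at 27.0, 34.3 and 45.5 CPM in negative and 26.9, 34.4 and 55.6 CPM in positive libraries (0.07 ± 0.16, 95% interval −0.27 to 0.41). Irf9, its DNA-binding partner, had 0.18 ± 0.16, and Irf7, the amplifier of interferon alpha genes, 0.11 ± 0.16. In positive 6 and 7 Irf9 stood at 41.5 and 38.8 CPM, against at most 25.4 CPM in positive 1 to 5 and 29.2 CPM in the negatives. Irf3, which switches on interferon beta after nucleic acid sensing, had −0.09 ± 0.08 (−0.25 to 0.07), and Irf1 had −0.10 ± 0.13. Irf2, an antagonist of Irf1, had −0.17 ± 0.16 and, like Irf3, was lower in 6 of 7 pairs without a call.

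The 3 sensors of double-stranded RNA in the cytosol were not called. Ddx58, which encodes RIG-I and was the most read of them, was at 37.8, 49.7 and 53.0 CPM in negative and 39.1, 52.0 and 57.3 CPM in positive libraries (0.07 ± 0.09, 95% interval −0.12 to 0.26). The lowest library of each group was number 1. Ifih1, which encodes MDA5 and lies in a locus linked to type 1 diabetes, had 0.30 ± 0.24 (adjusted p = 0.515). It was at 46.4 and 41.7 CPM in positive 6 and 7, while positive 1 to 5 had 13.8 to 26.7 CPM and the negatives 17.1 to 29.5 CPM. Without libraries 6 and 7 its sign turned (−0.18, adjusted p = 0.734). Dhx58, which encodes the regulator LGP2, had 0.43 ± 0.23 (adjusted p = 0.293), also with its highest values, 9.25 and 8.58 CPM, in positive 6 and 7.

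The IFIT genes, whose proteins bind viral RNA and block its translation, held 3 called members of 4 (all genes called higher: 6.4%). Of these, Ifit3 and Ifit3b share much sequence, so their calls may not be separate. Ifit2 (chromosome 19, 34550694 to 34576419) was at 0.370, 0.807 and 1.58 CPM in negative and 3.44, 10.4 and 52.4 CPM in positive libraries. In positive 6 and 7 it reached 52.4 and 42.7 CPM, and the remaining positives 3.44 to 12.4 CPM, all above every negative library. The log2 fold change was 4.41 ± 0.76 (adjusted p = 0.00195), and 2.99 without libraries 6 and 7 (adjusted p = 0.00355). Ifit3 (chromosome 19, 34583531 to 34588731) was at 3.79, 6.22 and 6.40 CPM in negative and 8.68, 11.97 and 26.4 CPM in positive libraries (1.52 ± 0.26, adjusted p = 0.00127). Its groups did not overlap either.

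Ifit3b and Ifit1 overlapped between the groups. Ifit3b was at 2.46, 3.54 and 4.97 CPM in negative and 4.36, 7.56 and 12.2 CPM in positive libraries (1.22 ± 0.23, adjusted p = 0.00232, higher in all 7 pairs). Of the positives, 3 alone lay within the negative range, and without libraries 6 and 7 the log2 fold change was 1.07 and the call was lost (adjusted p = 0.0554; 0.0104 in the same libraries with the block). Ifit3 and Ifit3b are neighbours with much shared sequence, as their promoter windows show. Of all stretches of 50 bases (the read length) in Ifit3 transcripts, 51.2% also occurred in Ifit3b transcripts, so how their reads were parted is uncertain. Ifit1 had 0.67 ± 0.32 (adjusted p = 0.249), with 29.6 CPM in negative 2 above all positives but 6 (42.7 CPM) and 7 (37.7 CPM).

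**Figure D2:**
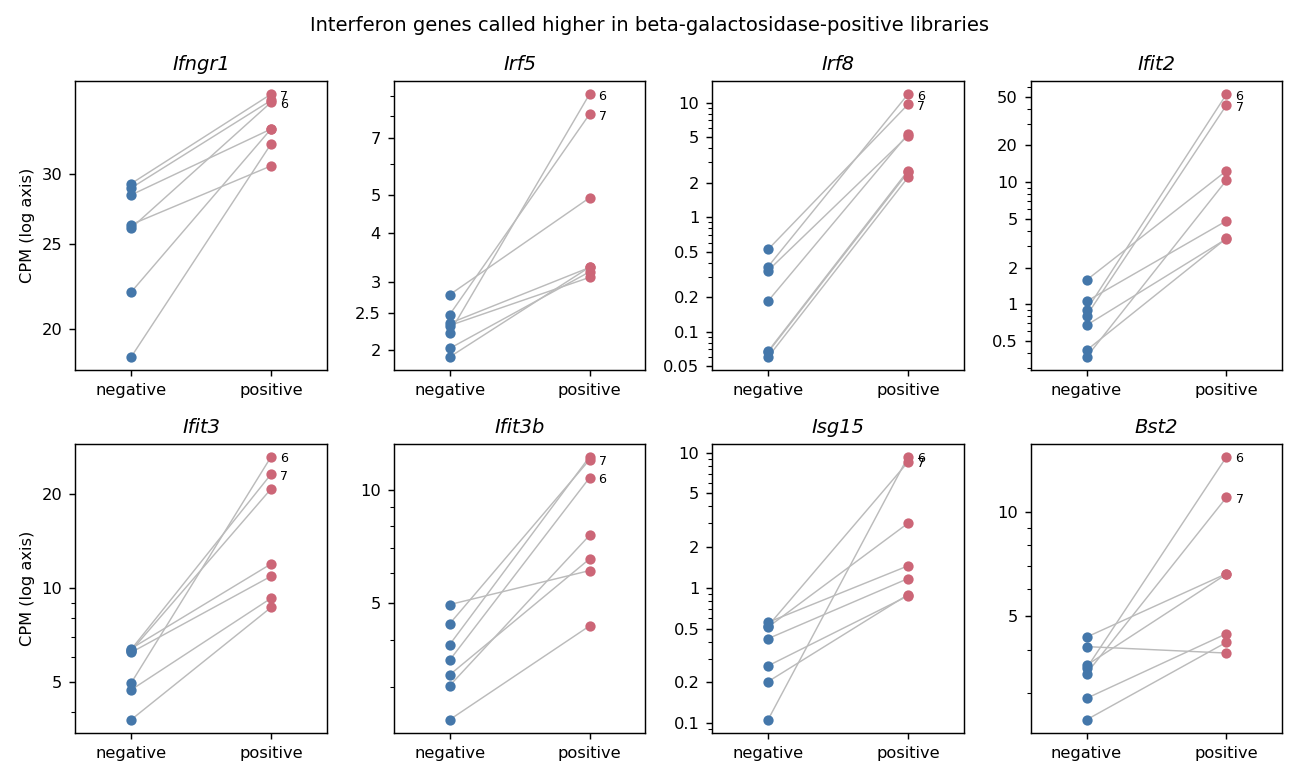
CPM (log axis) of the 8 called interferon genes in negative and positive libraries, 1 point a library, with grey lines joining libraries of the same number and positive 6 and 7 labelled. Positive 6 and 7 lie at the top for Ifit2, Isg15, Irf5, Irf8, Ifit3 and Bst2, whereas Ifngr1 is raised to much the same level in all 7 positive libraries.

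Of the ISG15 system, Isg15 rose and Usp18 was not called. Isg15, a ubiquitin-like protein joined to others in response to interferon (chromosome 4, 156199424 to 156200818), was at 0.106, 0.421 and 0.556 CPM in negative and 0.872, 1.45 and 9.31 CPM in positive libraries. Positive 6 and 7 had 9.31 and 8.53 CPM, the next positive 3.01 CPM, and the negative level rested on 45 counts over 7 libraries. The log2 fold change was 3.25 ± 0.66 (adjusted p = 0.00539, higher in all 7 pairs), and 1.90 without libraries 6 and 7 (adjusted p = 0.0256). Usp18, the protease that removes ISG15 and damps type I receptor signalling, had 0.05 ± 0.20 (95% interval −0.37 to 0.46), with its highest value, 18.1 CPM, in negative 2.

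No OAS gene, whose products make the 2-5A signal that activates RNase L, was called among the 4 tested. Oasl2, the most read of them, was at 10.7, 13.4 and 20.8 CPM in negative and 12.3, 15.2 and 28.0 CPM in positive libraries (0.24 ± 0.18, adjusted p = 0.483). Oas1a had 0.50 ± 0.24 (adjusted p = 0.236) and Oas1b, which is truncated in this strain, 0.24 ± 0.26. Of the 50-base stretches of Oas1a, 57.6% occurred in Oas1g too. Oas2 had −0.29 ± 0.24 and was lower in 6 of 7 pairs. Oas3, not tested, had 23 counts in negative and 159 in positive libraries, with 70 and 41 of these in positive 6 and 7. With no filter on low counts its log2 fold change was 2.60 ± 0.79 (adjusted p = 0.0927).

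Viperin and the MX genes differed in level but none was called. Rsad2, which encodes the antiviral radical enzyme viperin (chromosome 12, 26442746 to 26456452), had the highest mean level of all members per length of transcript, 34.0 CPM per kilobase in negative and 41.7 in positive libraries. Ifi27, Jak1, Irf1 and Jak2 followed in negative libraries, with 33.2, 29.5, 26.5 and 23.4 CPM per kilobase. At the other end stood Oas3 and Irf8 (0.0283 and 0.0326 CPM per kilobase). In negatives the mean of Rsad2 was 147 CPM and its median 114 CPM, with negative 2 at 273 CPM. Its small lead over Ifi27 there thus depends on the use of means. In the negative libraries macrophage markers summed to at most 23.5 CPM, and which cells the Rsad2 RNA came from was not tested.

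Rsad2 varied more between libraries than between groups, at 44.7, 114 and 273 CPM in negative and 103, 157 and 285 CPM in positive libraries (0.30 ± 0.35, adjusted p = 0.679, higher in 3 of 7 pairs). Negative 2, at 273 CPM, was level with positive 6 (285 CPM) and 7 (258 CPM). Mx1, a dynamin-like antiviral protein that is defective in this strain, had 1.38 ± 0.45 (adjusted p = 0.0794) and was called with DESeq2 (adjusted p = 0.0139) and without positive 3 or positive 5 (0.0459 and 0.0465). Its log2 fold change was 0.50 without libraries 6 and 7 (adjusted p = 0.662). It was at 11.5 and 7.95 CPM in positive 6 and 7, against 1.72 to 4.41 CPM in positive 1 to 5 and 0.842 to 3.41 CPM in the negatives. Mx2 had −0.28 ± 0.21 and its highest value, 16.1 CPM, in negative 2.

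The guanylate-binding proteins Gbp2 and Gbp3, which attack the vacuoles of intracellular microbes, were not called in edgeR's test. Gbp2 was at 2.87, 3.37 and 4.75 CPM in negative and 3.39, 5.08 and 12.6 CPM in positive libraries (0.89 ± 0.30, adjusted p = 0.0925, higher in all 7 pairs). It was called with DESeq2 (adjusted p = 0.0328) and without positive 3 (0.0478), and without libraries 6 and 7 its log2 fold change was 0.34 (adjusted p = 0.449). Both positive 6 and 7 had 12.6 CPM and the other positives at most 5.44 CPM. Gbp3 had 0.43 ± 0.24 (adjusted p = 0.33) and likewise 10.3 and 10.1 CPM in positive 6 and 7, against 3.31 to 5.13 CPM in positive 1 to 5.

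Of the remaining effectors, only Bst2 was called. Bst2, or tetherin, which holds budding virus at the cell surface (chromosome 8, 71534255 to 71537456), was at 2.52, 3.54 and 4.35 CPM in negative and 3.92, 6.61 and 14.4 CPM in positive libraries. The highest was positive 6 (14.4 CPM), with 7 next, and positive 3 and 4 lay within the negative range. The log2 fold change was 1.06 ± 0.28 (adjusted p = 0.0264), and 0.56 without libraries 6 and 7 (adjusted p = 0.264). Leaving out 1 library also ended the call for 6 of the 14, namely negative 2, 4, 5 and 6 and positive 6 and 7 (0.05 to 0.0675). Ifi27 (−0.02 ± 0.12, 95% interval −0.27 to 0.23) and Ifi35 (0.05 ± 0.09, −0.15 to 0.24) were not called. Xaf1, a partner of the apoptosis inhibitor XIAP, had 0.32 ± 0.29 (adjusted p = 0.58). Ifi44, not tested, had 40 counts in negative and 115 in positive libraries. With no filter on low counts its log2 fold change was 1.38 ± 0.47 (adjusted p = 0.116).

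**Figure D3:**
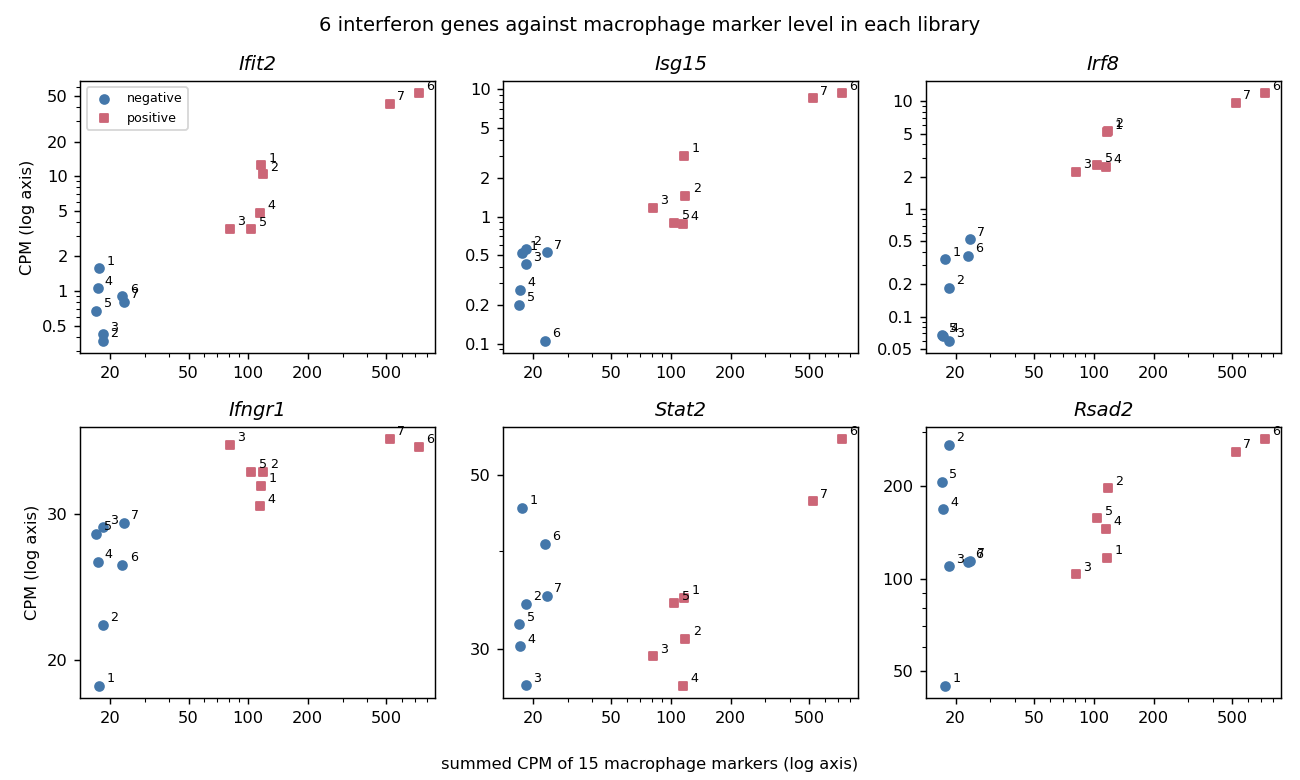
CPM of 6 interferon genes (y, log axis) against the summed CPM of 15 macrophage markers (x, log axis), 1 point a library, numbered by replicate. Ifit2, Isg15 and Irf8 are lowest in the negatives and highest in positive 6 and 7. In the negatives Rsad2 runs from 44.7 to 273 CPM at marker sums of 17.1 to 23.5 CPM. C1qa alone gives 9.88 to 11.6 CPM of these sums, whereas the marker Mpeg1 runs from 0.128 to 2.06 CPM. The cell source of these transcripts was not tested.

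Without the 4 libraries numbered 6 and 7, Irf8, Ifit2, Ifit3 and Isg15 were called, 4 of 37 members, against 3.28% of all genes called higher. In these 10 libraries the median log2 fold change of the members was 0.05. With the block as well, an alternative added after the data were seen, 7 of the 8 were called and Bst2 was not (adjusted p = 0.0583), against 6.36% of all genes called higher. Positive 1 to 5 alone lay above every negative library for 6 members, Ifngr1, Irf5, Irf8, Ifit2, Ifit3 and Isg15 (all genes: 3.62%). In the negatives, 6 and 7 both exceeded negative 1 to 5 in 1 of the 39 members, Irf8. The share over all genes was not computed for the negatives, so this count has nothing to be set against. The order of Irf8 rested on few reads, with 7 and 11 in negative 6 and 7 and 8 in negative 1. Negative 6 and 7 had the highest macrophage marker sums of the negatives, 23.2 and 23.5 CPM.

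**Figure D4:**
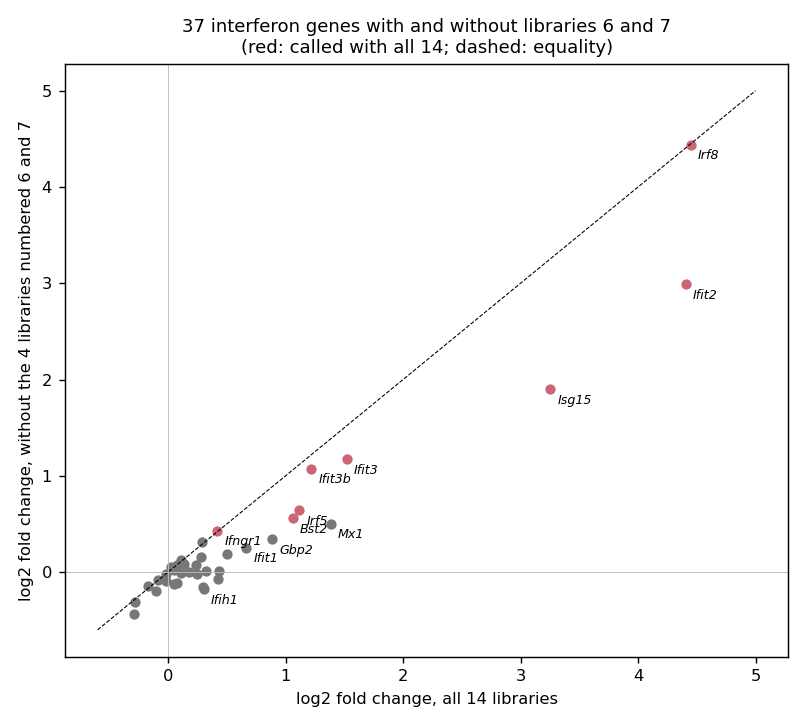
Log2 fold change of the 37 interferon genes tested with all 14 libraries (x) and without the 4 libraries numbered 6 and 7 (y), with the line of equality; red points were called with all 14. Irf8 and Ifngr1 stay on the line, and Ifit2, Isg15, Irf5, Bst2, Mx1 and Gbp2 fall below it.

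Among the negative libraries, number 2 carried the highest level of 10 members. These included Rsad2, Ifit1, Usp18, Oasl2, Oas1a, Mx2 and Xaf1, and for Usp18 and Mx2 it was above every positive library. Negative 2 had the fewest reads (11060144) and 18.5 CPM of macrophage markers, within the range of the other negatives. Positive 2 was likewise the highest positive library for Usp18 and Mx2 (15.6 and 11.4 CPM). Negative 1 was the highest negative library for 11 members, Stat2, Ifih1 and Mx1 among them, and the lowest for 13, Rsad2, Ifit1 and Ifngr2 among them.

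Beyond the members, 105 further genes of the pathway were looked up and 76 tested. Of these, 14 rose, 1 fell and 61 were not called, with a median log2 fold change of 0.12, against 6.4% of all genes called higher and 1.63% lower. By role, 8 of 40 effectors rose and 1 fell, 4 of 13 sensing and adaptor genes rose, as did 1 of 9 immunity-related GTPases and GBPs and 1 of 8 inhibitors. Neither of 2 lambda receptor chains and none of 4 STAT and IRF factors was called.

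The 3 largest log2 fold changes with all libraries were those of Slfn2 (log2 fold change 5.47 ± 0.90, adjusted p = 0.00128), Ifi204 (5.02 ± 0.93, adjusted p = 0.00299) and Slfn5 (4.91 ± 0.70, adjusted p = 0.000463). Slfn2 and Slfn5 are Schlafen genes of blood and immune cells, and Ifi204 encodes a DNA-binding protein of macrophages. Their negative levels rested on 19, 16 and 72 counts, which leaves the folds imprecise. Without libraries 6 and 7 the log2 fold changes were 4.72 for Slfn2, 3.35 for Ifi204 and 5.86 for Slfn5, all called, and without negative 3 that of Ifi204 was 6.36. Of the more abundant called genes, Rnf213, a large ubiquitin ligase, went from 64.6, 73.4 and 86.4 CPM in negative to 86.7, 88.4 and 137 CPM in positive libraries (0.45 ± 0.12, adjusted p = 0.0225). Tbk1, the kinase that activates IRF3, went from 45.4, 52.7 and 56.9 to 56.9, 59.9 and 61.7 CPM (0.21 ± 0.05, adjusted p = 0.0222). All positives lay above all negatives (all genes: 3.5%), but barely, with 56.89 CPM in positive 2 and 56.87 CPM in negative 4. Leaving out 1 library ended the call of Rnf213 for 3 libraries, negative 5 and positive 6 and 7 (adjusted p 0.0523 to 0.0597), and that of Tbk1 for 5, negative 1, 2 and 6 and positive 6 and 7 (0.0519 to 0.0659). Over all single libraries left out, the log2 fold change stayed at 0.35 to 0.49 for Rnf213 and 0.16 to 0.21 for Tbk1. They were 0.30 and 0.21 without libraries 6 and 7, and the call of Tbk1 was lost (adjusted p = 0.216). Apobec3, a cytidine deaminase that mutates retroviral DNA, was the 1 gene that fell, from 12.4, 14.96 and 16.9 to 9.73, 11.4 and 13.6 CPM (−0.34 ± 0.09, adjusted p = 0.0311, lower in all 7 pairs). Negative 2 and 5 and positive 3, 4 and 7 were the libraries without which its call was lost (0.0516 to 0.0599), with log2 fold changes of −0.39 to −0.29 over all single libraries left out. Its value was −0.40 without libraries 6 and 7 and was not called (adjusted p = 0.102).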

How the data were processed

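The authors deposited a table of raw read counts, 1 row a gene. Per the submitters' processing notes, Subread, featureCounts and GRCm38 were used. Per the labels' protocols, polyadenylated RNA went into directional libraries. The annotation is not given in the sources used here, nor are versions, use of strand in counting, or what was done with multiply matching reads. Reads of overlapping or antisense genes can therefore not be separated. Nothing in the labels ties a library to an animal of its own: p-values reflect differences among libraries and may be technical.

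Groups were compared with edgeR 4.0.16 (R 4.3.3): filterByExpr, TMM scaling (factors 0.969 to 1.03), robust quasi-likelihood F-test, group as the only term, two-sided. The whole table was fitted and only pathway genes are printed. SE and 95% intervals come from the F statistic. CPM use TMM-scaled sizes, and CPM per kilobase the joined exon length of GENCODE M21. The fit was tested on simulated data.

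Deviations from group means of libraries sharing a number correlated by 0.203 to 0.541 in all 7 pairs (median −0.125 for different numbers). Centring on group means itself pulls the values for different numbers below 0, and only their median was kept. On this basis the numbers, taken from the titles, were treated as pairs in the blocked fit. The labels state no pairing.

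Members, lists, markers and tests were chosen with earlier results of these data known. Library values are given for called members (per role, up to 3 by mean CPM and 2 by fold change) and for the most read member of a role with none called. Further pathway genes named are the 3 called with the highest mean CPM, the 3 with the largest fold change and those that fell. Windows printed are those of called members with ISRE letters and 1 without (Ifngr1), and that of Irf8, added after the values were seen. Alternatives were the block, median-ratio size factors, no filter, DESeq2 1.42.0, leaving out each library, and leaving out libraries 6 and 7. The result of 1 further pathway gene is not reported here.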

Additional observations from a re-analysis of the deposited data

Results flagged for a closer look

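In each group of 7 libraries, a member's highest or lowest library was picked out when its gap to the nearest other took up an unusually large share of the group's range (Dixon's criterion). This was looked at in 78 groups, and 8 met it; chance alone picks out about 1 in 20. Negative 1 was low for Jak2 (76.6 CPM, next 116), Irf2 (34.3 CPM, next 66.7) and Ddx58 (37.8 CPM, next 46.8), and high for Mx1 (3.42 CPM, next 1.92). Negative 2 was high for Ifit1 (29.6 CPM, next 16.4), Usp18 (18.1 CPM, next 11.2) and Oasl2 (20.8 CPM, next 15). Positive 1 was low for Jak2 (106 CPM, next 124).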

How the results depend on the processing

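The count of 8 members called (6.4% of all genes called higher) was 9 with the replicate block (11.8%), 8 with median-ratio size factors (6.34%), 8 with no filter (39 tested, 3.94%), 11 with DESeq2 (7.09%), 4 without libraries 6 and 7 (3.28%), and 7 with the block and without these (6.36%), the last chosen after seeing the data. It was 7 to 10 when single libraries were left out (4.97% to 7.63%). The DESeq2 count holds Mx1, Gbp2 and a member not tested in the main fit. The count of 15 further pathway genes was 19 with the block, 15 with median-ratio factors, 21 without the filter, 30 with DESeq2 (92 tested), 9 without libraries 6 and 7, and 9 to 17 when single libraries were left out, with 9 without positive 7. No called gene changed direction under any of these. Members that were not called did. Without libraries 6 and 7, the log2 fold change was −0.11 for Stat2, −0.014 for Irf7, −0.0017 for Irf9, −0.18 for Ifih1, −0.13 for Usp18, −0.023 for Oasl2, −0.15 for Rsad2 and −0.067 for Gbp3. With the block as well it was −0.099 for Stat2, −0.20 for Ifih1, −0.15 for Usp18, −0.00024 for Oasl2 and −0.072 for Gbp3. When single libraries were left out, log2 fold changes of both signs came for Jak1 (−0.015 to 0.045), Stat2 (−0.069 to 0.14), Irf7 (−0.013 to 0.17), Usp18 (−0.060 to 0.18), Ifi27 (−0.094 to 0.048) and Ifi35 (−0.018 to 0.093). The causes were not tested. The block changed the call of 1 member, Ifnar2, and of no other gene named. Low counts limit Irf8, Isg15, Oas3 and Ifi44 most.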
